A study of Mus musculus with 4 samples.

Results

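A set of 10 genes whose products build, coat or load lipoprotein particles was followed in cardiac progenitor cells grown from mouse embryonic stem cells: Apoa1, Apoa2, Apoa4, Apob, Apoc1, Apoc2, Apoe, Apoh, Apom and Mttp. They were taken by symbol from a deposited table of 39179 gene identifiers, in which each of the 10 genes had 1 row. The cells came from a line with an inducible Gata6 gene. They were kept for 2 days either with 10 µM cucurbitacin I hydrate, a plant triterpenoid that inhibits signalling through JAK2 and STAT3, or with the solvent DMSO at 0.1% of the medium. Each group had 2 RNA sequencing libraries, and all 4 libraries come from the same inducible line, for which no label names a state of induction. Treatment began on day 6, while day 8 stands in the titles and day 10 in the extraction protocol. Whether the libraries of a group are separate cultures is not labelled, so the p-values speak only of the spread among these samples, and that spread may be technical.

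Lipoproteins are particles of neutral lipid wrapped in phospholipid and protein, which carry triglyceride and cholesterol between cells. Apob is the large structural protein of very-low-density particles and stays with its particle for life, while the smaller apolipoproteins exchange between particles. Mttp encodes the microsomal triglyceride transfer protein, which loads lipid onto Apob in the endoplasmic reticulum, and Apob that is not loaded is degraded. Liver, intestine and yolk sac visceral endoderm are the classic sources, and heart muscle is also known to express both Apob and Mttp.

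Apob, Apoa1, Apoa2, Apoc2, Apoe and Apom transcripts were lower in the cucurbitacin I libraries, and Mttp transcripts were not. Of the 10 genes, 9 passed the filter on low counts and were tested with edgeR, 6 were called lower at an adjusted p below 0.05, 0 were called higher and 3 did not pass. Across all 16722 genes tested, 19.5% were called lower and 13.9% higher. The median log2 fold change was -3.90 over the 9 genes and -0.01 over all genes tested. Of the 6 genes called lower, 5 met the filter in the DMSO libraries alone, so that these genes had to differ in order to be tested, and the count and median describe the genes without adding support. Both cucurbitacin I libraries lay below both DMSO libraries in CPM, the count scaled to the library's TMM-adjusted size, for 7 of the 10 genes, among them 6 of the 9 tested, and for 37.4% of all genes tested. With 2 libraries a group 0.333 is the smallest p that an exact permutation test of a single value can reach, and each call therefore depends on the spread edgeR estimates over many genes.

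**Figure D1:**
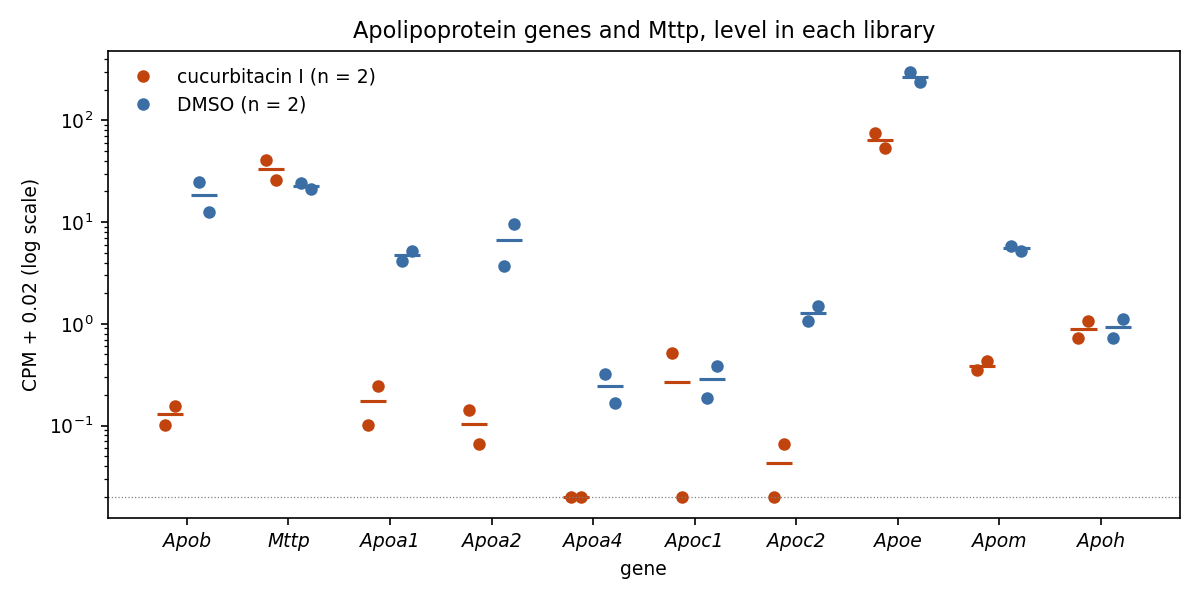
Level of each of the 10 genes in each library, as CPM plus 0.02 on a log scale, with cucurbitacin I left of DMSO, points for libraries and bars for the mean of 2. Apob, Apoa1, Apoa2, Apoa4, Apoc2, Apoe and Apom have separate groups with cucurbitacin I below, Apoc1 and Apoh overlap, and Mttp is separate with cucurbitacin I above (40.8 and 25.8 against 24.3 and 21.1 CPM).

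Apob (ENSMUSG00000020609, mm10 chromosome 12, 7977648 to 8016835) showed the lowest log2 fold change of the 9 tested. It had 2 and 3 counts in the cucurbitacin I libraries, against 732 and 343 counts in the DMSO libraries. The mean was 0.109 ± 0.0379 CPM in cucurbitacin I and 18.5 ± 8.37 CPM in DMSO (SD, n = 2 each), and although the DMSO libraries differed from each other, both stood far above the cucurbitacin I libraries. The edgeR log2 fold change was -7.37 (SE 0.56, adjusted p = 0.0022). With so few counts on one side, the ratio of scaled counts is the plainer measure: Apob was 175-fold lower in cucurbitacin I, with an exact 95% counting interval of 74.9 to 541 for the fold. These intervals cover counting error only, and reads without molecular identifiers are not independent molecules. The bulk RNA does not say whether fewer cells of a type or less RNA per cell underlies such a difference, and these cannot be told apart.

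Mttp (ENSMUSG00000028158, chromosome 3, 138089855 to 138143388) did not follow its partner. It had 995 and 572 counts in the cucurbitacin I libraries and 728 and 572 counts in the DMSO libraries, which is 33.3 ± 10.6 CPM and 22.7 ± 2.31 CPM (SD, n = 2 each). The groups did not overlap in CPM. In TPM, the count per transcript length scaled to each library's own sum without TMM, they did. The TPM values were 21.1 and 13.3 in cucurbitacin I and 15.7 and 13.2 in DMSO. The log2 fold change of 0.55 (SE 0.23) did not pass, with an edgeR adjusted p of 0.121. Without cucurbitacin I replicate 2 it was 0.85 and passed (edgeR adjusted p = 0.00956), so the size of this difference rests on 1 library. Within a library, where no scaling between libraries enters, there were 498 and 191 Mttp counts per Apob count in cucurbitacin I, against 0.995 and 1.67 in DMSO. The 2 groups of this ratio did not overlap, and a 2-sided exact permutation test gave p = 0.333, the smallest it can give with 2 libraries a group. In cucurbitacin I the ratio rests on 2 and 3 Apob counts, so its size is loosely fixed and it restates the Apob difference. P4hb, which encodes the disulfide isomerase that forms the other subunit of the transfer complex and was picked after its values were seen, averaged 678 CPM in cucurbitacin I and 744 CPM in DMSO (log2 fold change -0.13, edgeR adjusted p = 0.477).

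The starts of 5 of these genes are shown so that the letters before genes called lower can be read beside those before genes that did not pass. Of the 10 genes, 9 had at least 1 window in the RefSeq promoter table (GRCm38.p6, the assembly of mm10), 12 windows in all, each with 250 bases before and 50 after an annotated start. The windows below run 5′ to 3′ on the gene's strand. Capitals mark letters from a fixed set of motifs, searched on both strands: TGTTTAC or TGTTTGC (the core bound by FOXA factors), TATAAA (the TATA box) and GGGCGG (the GC box). The windows of Apob, at chr12:7977427-7977726 on the plus strand, and Apoa1, at chr9:46228380-46228679 on the plus strand, belong to genes that were called lower.
Apob: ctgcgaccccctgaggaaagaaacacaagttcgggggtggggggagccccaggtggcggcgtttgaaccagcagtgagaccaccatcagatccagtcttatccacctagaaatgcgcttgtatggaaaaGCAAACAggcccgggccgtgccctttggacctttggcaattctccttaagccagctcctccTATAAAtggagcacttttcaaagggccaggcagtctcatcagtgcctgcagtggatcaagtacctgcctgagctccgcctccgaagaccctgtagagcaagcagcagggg
Apoa1: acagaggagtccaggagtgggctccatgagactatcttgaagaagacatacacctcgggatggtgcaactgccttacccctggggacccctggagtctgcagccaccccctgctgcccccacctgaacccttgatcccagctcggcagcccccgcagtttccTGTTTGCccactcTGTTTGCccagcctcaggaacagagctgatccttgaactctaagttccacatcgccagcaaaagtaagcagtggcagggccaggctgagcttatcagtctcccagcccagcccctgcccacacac
The Apoa2 window used here, at chr1:171224804-171225103 on the plus strand, is the one that starts at the annotated transcripts and also belongs to a gene called lower.
Apoa2: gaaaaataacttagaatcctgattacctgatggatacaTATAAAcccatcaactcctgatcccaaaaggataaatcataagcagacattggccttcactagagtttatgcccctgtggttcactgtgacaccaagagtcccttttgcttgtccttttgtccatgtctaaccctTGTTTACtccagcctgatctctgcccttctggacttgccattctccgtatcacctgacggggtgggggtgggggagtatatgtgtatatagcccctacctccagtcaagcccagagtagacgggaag
The windows of Apoh, at chr11:108395047-108395346 on the plus strand, and Mttp, at chr3:138143369-138143668 on the minus strand, belong to genes that did not pass.
Apoh: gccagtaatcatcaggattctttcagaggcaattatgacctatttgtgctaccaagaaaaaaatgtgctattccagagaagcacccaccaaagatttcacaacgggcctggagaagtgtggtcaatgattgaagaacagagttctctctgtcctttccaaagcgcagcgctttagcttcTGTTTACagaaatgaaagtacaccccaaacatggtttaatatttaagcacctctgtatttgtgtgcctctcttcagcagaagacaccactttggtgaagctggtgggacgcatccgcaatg
Mttp: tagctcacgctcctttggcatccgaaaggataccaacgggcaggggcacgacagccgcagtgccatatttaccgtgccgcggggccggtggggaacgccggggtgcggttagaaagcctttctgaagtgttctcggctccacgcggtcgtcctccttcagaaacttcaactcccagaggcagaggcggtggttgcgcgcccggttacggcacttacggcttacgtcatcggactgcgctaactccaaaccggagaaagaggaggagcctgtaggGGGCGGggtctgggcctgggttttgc

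TGTTTAC or its reverse complement was found in 3 of the 12 windows, 1 each of Apoa2, Apoe and Apoh, and in 3.65% of all 32851 windows in the table. TGTTTGC was found in the Apoa1 window, at 2 places, and in that of Apob, and in 5.07% of all windows. Both kinds of match include genes that were called lower, and TGTTTAC also lies in the window of Apoh, which was not. The Mttp window held no match to either form, and it was the only 1 of the 12 windows with GGGCGG, found in 35.7% of all windows. In Mttp these letters begin after the start, at base 25. The GC content of the Mttp window was 62%, against a median of 52.7% over all windows. TATAAA was found in windows of Apob, Apoa2 and Apoe, and in 13.6% of all windows. Its first base lay at -60 from the start in Apob and at -212 in Apoa2. Apoe had 3 windows. The TGTTTAC match and TATAAA lay in different windows, both at starts inside the Apoe row. The window at the 5′ end of that row held none of the marked letters. The exact letters CAAAGTCCA and CAAAGGTCA (HNF4), TTGCGCAA and TTGCNNAAT (C/EBP), TCACCCCAC and TCACNCCAC (sterol element) and TTCNNNGAA (STAT) were in 0 of the 12 windows, and in 0.183% to 8.3% of all windows. TCACCCCAC is a special case of TCACNCCAC. A match is a description of letters and not a bound site, and the absence of these letters in 300 bases says nothing about the factors. GENCODE M21 gives Mttp protein-coding transcripts from 2 starts, and the counts per gene do not separate them.

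Apoa1 and Apoa2, apolipoproteins of high-density particles, were also called lower. Apoa1 (ENSMUSG00000032083, chromosome 9, 46228580 to 46230466), the main protein of high-density lipoprotein and the activator of the cholesterol-esterifying enzyme Lcat, had 2 and 5 counts in cucurbitacin I and 124 and 142 counts in DMSO. It was 31-fold lower by scaled counts (exact 95% counting interval 14.8 to 77.8), with a log2 fold change of -4.91 (SE 0.45, edgeR adjusted p = 0.00293) and of -5.75 without cucurbitacin I replicate 2. Apoa2 (ENSMUSG00000005681, chromosome 1, 171225054 to 171226379), the second protein of these particles, had 3 and 1 counts in cucurbitacin I and 111 and 262 counts in DMSO. It was 76-fold lower (29.4 to 280), with a log2 fold change of -6.20 (SE 0.78, edgeR adjusted p = 0.00564). The Apoa2 value was -7.06 without cucurbitacin I replicate 1 and -5.35 without DMSO replicate 2. For both genes the cucurbitacin I libraries were near the floor of detection and the DMSO libraries were not, and the DMSO libraries differed from each other more for Apoa2 than for Apoa1.

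Apom and Apoa4 were also low after treatment, at different depths. Apom (ENSMUSG00000024391, chromosome 17, 35128997 to 35132050), a lipocalin that carries sphingosine-1-phosphate on high-density particles, had 8 and 9 counts in cucurbitacin I and 175 and 141 counts in DMSO. Its replicates were close, at 0.367 ± 0.0557 CPM in cucurbitacin I and 5.52 ± 0.464 CPM in DMSO (SD, n = 2 each). The log2 fold change was -3.90 (SE 0.30, edgeR adjusted p = 0.00224). Apoa4 (ENSMUSG00000032080, chromosome 9, 46240696 to 46243459), an apolipoprotein of intestinal particles, had 0 counts in both cucurbitacin I libraries and 9 and 4 counts in DMSO, too few for the filter. With the cucurbitacin I group set to 3 counts, Apoa4 was 3.53-fold lower, and the exact 95% counting interval of the fold begins at 2.48. The authors' deposited table gives Apoa4 a log2 fold change of -1.58 with an adjusted p of 0.0282, while edgeR without a filter gave an adjusted p of 0.0516. An antisense gene, Gm10680, overlaps Apoa4, and the sources used here do not give the strand setting of the counting, so reads of the pair cannot be told apart.

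**Figure D2:**
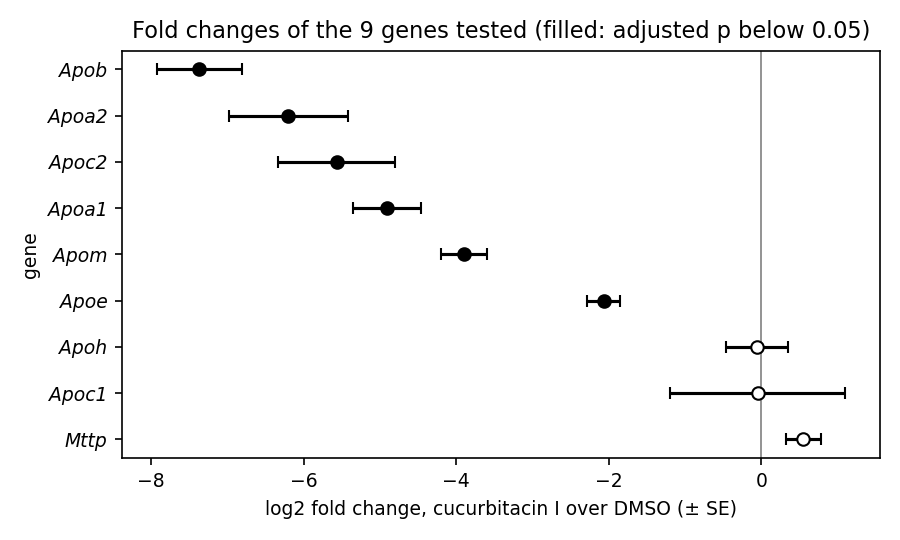
Log2 fold change of cucurbitacin I over DMSO with its standard error from edgeR for the 9 genes tested, ordered from lowest to highest, with filled points for an adjusted p below 0.05. The 6 filled points lie between -7.37 (Apob) and -2.07 (Apoe), and the 3 open points are Apoh, Apoc1 and Mttp.

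Apoe was the most abundant of the 10 genes and showed the smallest difference among the 6 called lower. Apoe (ENSMUSG00000002985, chromosome 7, 19696109 to 19699166), the ligand through which remnant particles enter cells by way of surface receptors, is made by many cell types, macrophages among them. It had 1824 and 1171 counts in cucurbitacin I and 8935 and 6423 counts in DMSO, or 63.8 ± 15.4 CPM and 267 ± 43.9 CPM (SD, n = 2 each). The log2 fold change was -2.07 (SE 0.21, edgeR adjusted p = 0.00351), which is 0.239 of the DMSO level. The groups did not overlap, and all 4 libraries held over 1000 counts.

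Of the 2 C-type apolipoproteins beside Apoe on chromosome 7, Apoc2 was called lower and Apoc1 did not pass, and the difference between them was not tested. Apoc2 (ENSMUSG00000002992, 19671579 to 19681423), the cofactor that lipoprotein lipase needs to release fatty acids, had 0 and 1 counts in cucurbitacin I and 31 and 40 counts in DMSO. It was 57.9-fold lower by scaled counts, with a wide counting interval of 10.1 to 2317, and its log2 fold change was -5.57 (SE 0.77, edgeR adjusted p = 0.00699). The size is loosely fixed, at -4.65 without cucurbitacin I replicate 1 and -8.09 without cucurbitacin I replicate 2, where the group is left with 0 counts and the value depends on the prior count. The Apoc2 row spans Apoc4, which held 5.56% as many counts. Apoc1 (ENSMUSG00000040564, 19689484 to 19692658), an inhibitor of particle uptake and of lipases, had 12 and 0 counts in cucurbitacin I and 5 and 10 counts in DMSO. The 2 treated libraries enclose both DMSO libraries, and no difference was detectable at this depth (log2 fold change -0.05, SE 1.15, edgeR adjusted p = 0.975). The Apoc1 value was -5.83 without cucurbitacin I replicate 1, 0.89 without cucurbitacin I replicate 2, -0.52 without DMSO replicate 1 and 0.59 without DMSO replicate 2.

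Apoh (ENSMUSG00000000049, chromosome 11, 108343354 to 108414396) encodes beta-2-glycoprotein I, a plasma protein that binds anionic phospholipid. It had 17 and 23 counts in cucurbitacin I and 21 and 30 counts in DMSO, so that the groups overlapped in CPM. The log2 fold change was -0.06 (SE 0.41, edgeR adjusted p = 0.926), and it was positive when cucurbitacin I replicate 1 (0.21) or DMSO replicate 2 (0.30) was left out. The exact 95% counting interval of the fold by which Apoh was lower, 0.673 to 1.61, does not reach the folds of the 6 genes called lower. That interval leaves out the spread between libraries, and the difference between Apoh and those genes was not tested. Prkca, a highly counted gene on the opposite strand, overlaps the Apoh row by 575 bp, and Apoh transcripts are annotated from several starts.

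On a scale per transcript length the order of the 10 genes differed between the groups. Levels were set in TPM from the deposited counts and the GENCODE M21 exonic lengths. In cucurbitacin I, Apoe was highest at 95.8 ± 23.3 TPM, followed by Mttp at 17.2 ± 5.48 TPM (SD, n = 2 each). The next means there were 1.75 TPM for Apoh, 1.16 TPM for Apom and 1.06 TPM for Apoc1, and the Apoc1 libraries, at 2.12 and 0 TPM, enclosed those of the other two. Apoa2, Apoa1, Apoc2 and Apob averaged 0.502, 0.399, 0.089 and 0.025 TPM in cucurbitacin I, with overlap between Apoa2 and Apoa1 and between Apoc2 and Apob, and Apoa4 had 0 counts. In DMSO, Apoe stood at 495 ± 93.2 TPM and Apoa2 at 48.7 ± 29.6 TPM (SD, n = 2 each), with 27.7 and 69.6 TPM in the 2 libraries. Apom followed in DMSO at 21.5 TPM, then Apoa1 at 14.9 TPM and Mttp at 14.4 TPM, and the libraries of the last 2 overlapped. Apoc2 at 6.07 TPM and Apob at 5.28 TPM overlapped as well in DMSO, as did Apoh at 2.23 TPM and Apoc1 at 1.41 TPM, with Apoa4 lowest at 0.49 TPM.

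The shares of Apoe, Mttp and Apob in the family's counts did not overlap between the groups. Apoe held 63.7% and 65.6% of the counts of the 10 genes in cucurbitacin I, against 82.2% and 80.6% in DMSO. Mttp held 34.8% and 32% in cucurbitacin I, against 6.7% and 7.18% in DMSO, so that nearly all counts left in the family belonged to Apoe and Mttp. Apart from those 2 genes, the family summed to 1.64 and 1.77 CPM in cucurbitacin I and 44.6 and 38 CPM in DMSO, here by plain library totals. Each of these within-library shares had groups that did not overlap, with a 2-sided exact permutation p of 0.333, the smallest possible. The shares are parts of the same sum, so fewer Apoe and Apob counts by themselves raise the share of Mttp. They are description only.

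**Figure D3:**
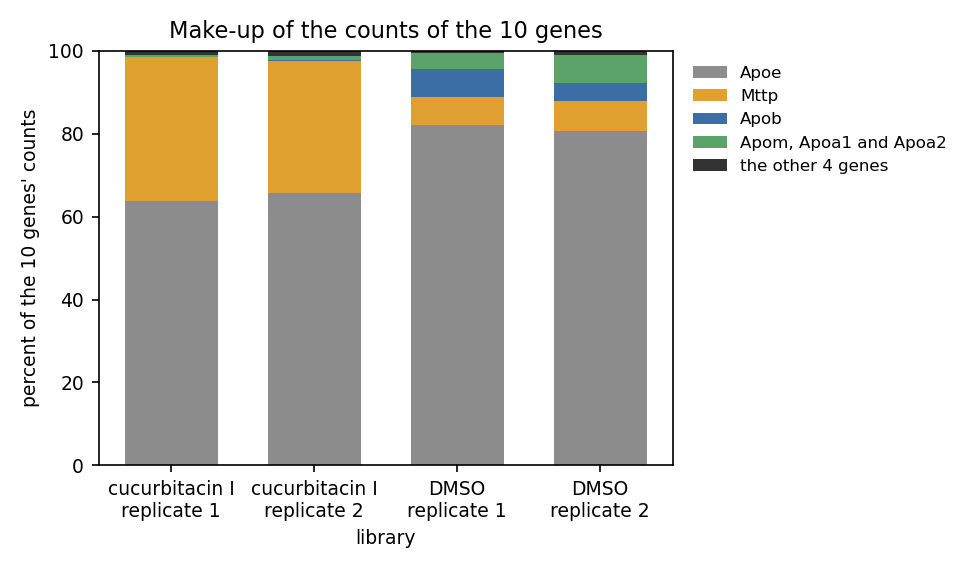
Percent of the counts of the 10 genes that each gene or set of genes holds, for the 2 cucurbitacin I libraries on the left and the 2 DMSO libraries on the right. Mttp takes 34.8% and 32% in cucurbitacin I and 6.7% and 7.18% in DMSO, and Apob is visible in DMSO alone, at 6.73% and 4.31%.

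Among nuclear factors known to act on apolipoprotein promoters in liver and visceral endoderm, Hnf4a, Nr5a2, Onecut1 and the FOXA genes were called lower. Of 23 listed transcription factor genes, 21 were tested, 12 (57.1%) were called lower and 0 higher, with a median log2 fold change of -1.54, beside 19.5% lower and 13.9% higher over all genes tested. Of the 12, Foxa3, Cebpa, Nr5a2 and Onecut1 met the filter in the DMSO libraries alone, so the count and median only describe the list. The number lower was 9 to 12 when single libraries were left out, and 7 among genes averaging at least 50 counts. Hnf4a, the nuclear receptor of hepatic gene programmes, was at 0.4 ± 0.246 CPM in cucurbitacin I and 12 ± 3.27 CPM in DMSO (SD, n = 2 each; log2 fold change -4.87, SE 0.44, edgeR adjusted p = 0.0028), and its log2 fold change was -5.69 without cucurbitacin I replicate 1. Nr5a2, a nuclear receptor that acts with Hnf4a in liver, was at 0.123 and 0.226 CPM in cucurbitacin I and 6.78 and 6.59 CPM in DMSO (log2 fold change -5.24). The libraries of each group were close for Nr5a2. The homeobox gene Onecut1 (-5.19) was called lower as well, at -4.56 without cucurbitacin I replicate 1 and -6.18 without cucurbitacin I replicate 2.

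The forkhead genes fell as well. Foxa2 had a log2 fold change of -3.50 and Foxa1 of -3.57, although the DMSO libraries of Foxa1 differed from each other, with 1.27 and 0.587 CPM in cucurbitacin I and 16.3 and 6.07 CPM in DMSO. Its log2 fold change was -4.24 without cucurbitacin I replicate 1 and -2.69 without DMSO replicate 1. Foxa3 had 0 counts in both cucurbitacin I libraries and 63 and 40 counts in DMSO. It was 28-fold lower with cucurbitacin I set to 3 counts over the group, and the exact 95% counting interval begins at 22.4. Cebpa (-2.87) and Nr2f2 (-1.67), a repressor of several apolipoprotein promoters, were lower too. Rxra (-0.45) was called lower but lost the call without cucurbitacin I replicate 1 (edgeR adjusted p = 0.074), DMSO replicate 1 (0.112) or DMSO replicate 2 (0.0837). Creb3l3 (-1.54) lost its call with DESeq2 (adjusted p = 0.157) and without any 1 of the 4 libraries (edgeR adjusted p 0.0639 to 0.176).

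Nr1h2, Nr1h3, Ppara, Srebf1 and Srebf2, lipid-sensing factors shared with other tissues, did not pass, unlike Rxra above. The oxysterol receptor genes Nr1h2 and Nr1h3 had log2 fold changes of 0.02 and 0.30, and Ppara, a fatty acid sensor of heart and liver, had 0.41 (edgeR adjusted p = 0.905, 0.43 and 0.452). Srebf2, the master regulator of sterol synthesis, was at 593 CPM in cucurbitacin I and 575 CPM in DMSO (log2 fold change 0.05, edgeR adjusted p = 0.792). Srebf1 had a log2 fold change of -0.31 (edgeR adjusted p = 0.177), and was called lower with library totals alone as the scaling (-0.55, 0.0475). Cebpb (-0.67), Prox1 (0.16), Nr0b2 (0.06) and Nr2f1 (-0.78) did not pass either. Nr2f1 passed without cucurbitacin I replicate 2 (log2 fold change -1.55, edgeR adjusted p = 0.00818).

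Receptors and their regulators went both ways. Of 18 listed genes, all tested, 7 (38.9%) were called lower and 2 (11.1%) higher, with a median log2 fold change of -0.41, beside 19.5% and 13.9% over all genes. Without DMSO replicate 1 these numbers were 3 and 0, without DMSO replicate 2 the number higher was 1, and without cucurbitacin I replicate 1 it was 0. Among the receptors, the VLDL receptor gene Vldlr (-1.87) and Lrp5 (-1.38), a Wnt co-receptor of the same family, were called lower under each alternative tried. Sorl1 (-1.87), a sorting receptor, lost its call without DMSO replicate 1 (edgeR adjusted p = 0.0572). Amn (-1.91), a partner of cubilin in endoderm, and Lrpap1 (-0.51), the receptor chaperone, lost theirs without cucurbitacin I replicate 1, DMSO replicate 1 or DMSO replicate 2, with edgeR adjusted p between 0.0509 and 0.0776. Of 22 listed genes of cholesterol synthesis, 21 were tested, 3 (14.3%) were lower (Acat2, Mvd and Tm7sf2) and 0 higher, with a median of -0.06, beside 19.5% and 13.9% over all genes. With library totals alone as the scaling, 9 were lower. Without cucurbitacin I replicate 1 or DMSO replicate 2, 1 was lower. That scaling moved the median over all genes to -0.24, against -0.01 with the scaling used throughout.

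**Figure D4:**
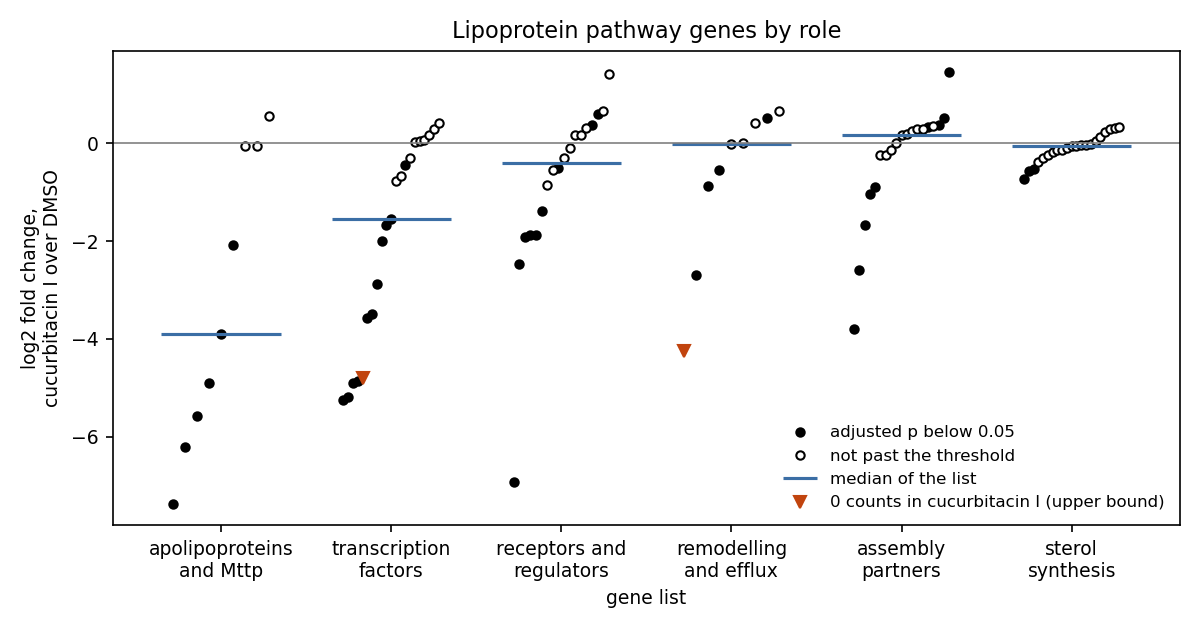
Log2 fold change of cucurbitacin I over DMSO for each tested gene of 6 lists by role, with filled points for an adjusted p below 0.05, a line for each list's median and triangles for genes with 0 counts in cucurbitacin I. Triangles are drawn at the value given by 3 counts, which leaves out the counting error in DMSO. The apolipoproteins with Mttp and the transcription factors have medians of -3.90 and -1.54, while sterol synthesis lies near 0, at -0.06.

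Genes that act on particles after secretion went both ways. Of 14 listed genes of remodelling and efflux, 9 were tested, 4 (44.4%) were called lower and 1 (11.1%) higher, with a median of -0.01, beside 19.5% and 13.9% over all genes. The numbers were 2 lower without DMSO replicate 2, and 0 higher without either DMSO library. Hepatic lipase, Lipc, had 0 counts in both cucurbitacin I libraries and 38 and 32 counts in DMSO. With cucurbitacin I set to 3 counts it was 19-fold lower, and the exact 95% counting interval begins at 15.1. Endothelial lipase, Lipg, fell by 2.70 on the log2 scale (SE 0.26, edgeR adjusted p = 0.00309). Lipoprotein lipase, Lpl, the enzyme that muscle uses to take up fatty acids, averaged 203 CPM in cucurbitacin I and 129 CPM in DMSO and did not pass (log2 fold change 0.66, edgeR adjusted p = 0.131), but was called higher without cucurbitacin I replicate 1 (0.95, 0.0342). The cholesterol exporter genes Abca1 (0.51) and Abcg1 (-0.88) and the phospholipid transfer protein gene Pltp (-0.55) were called, Abca1 higher and the other 2 lower. Those 3 calls were lost without DMSO replicate 2 (edgeR adjusted p = 0.105, 0.106 and 0.115). Abca1 and Abcg1 also lost theirs without cucurbitacin I replicate 1 (0.085 and 0.0572), Abca1 and Pltp without DMSO replicate 1 (0.162 and 0.0642), and Pltp without cucurbitacin I replicate 2 (0.0613). With library totals alone as the scaling, Abca1 was not called (0.145).

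Among partners of particle assembly in the secretory pathway, Mia2 and Apobec1 were called lower. Of 20 listed genes, 19 were tested, 5 (26.3%) were called lower and 4 (21.1%) higher, with a median of 0.16, shares near the 19.5% and 13.9% over all genes. Without DMSO replicate 2 the numbers were 2 and 0, without DMSO replicate 1 the number higher was 0, and without cucurbitacin I replicate 2 it was 1. Mia2, which helps export large cargo from the endoplasmic reticulum of liver cells, had 3 and 5 counts in cucurbitacin I and 75 and 66 counts in DMSO, and was 14.4-fold lower (exact 95% counting interval 7.09 to 33.9). Apobec1, the deaminase that edits Apob mRNA, fell by 2.59 on the log2 scale (SE 0.35, edgeR adjusted p = 0.0067). Its editing cofactor A1cf had 0 counts in both cucurbitacin I libraries and 10 and 50 counts in DMSO, and was not tested.

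Calls on Tm6sf2, Dgat2, Fitm2 and Pla2g12b each depended on at least 1 library. Tm6sf2, which promotes lipid loading of very-low-density particles, was called higher (log2 fold change 1.45, edgeR adjusted p = 0.0281) on 43 and 53 counts in cucurbitacin I and 19 and 24 in DMSO, and lost the call without cucurbitacin I replicate 2 (0.0968), DMSO replicate 1 (0.148) or DMSO replicate 2 (0.0698). Dgat2 (-0.90), which makes triglyceride, and Fitm2 (0.51), which helps to form lipid droplets, lost theirs without DMSO replicate 1 (0.0855 and 0.0683) and DMSO replicate 2 (0.0724 and 0.0955), and Fitm2 also with library totals alone as the scaling (0.13). Pla2g12b (-1.67), needed for particle loading in mouse liver, lost its call without DMSO replicate 2 (0.081).

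Other apolipoprotein genes were mostly near the floor in both groups. Of 12 listed, 1 was tested: clusterin, Clu, averaged 163 CPM in cucurbitacin I and 177 CPM in DMSO (log2 fold change -0.12, edgeR adjusted p = 0.807), with overlapping groups. Clu was called lower without cucurbitacin I replicate 1 (-0.72, edgeR adjusted p = 0.0319), and its sign turned without cucurbitacin I replicate 2 (0.31) or DMSO replicate 1 (0.07). Apoa5, which lies in the chromosome 9 cluster, had 0 counts in both cucurbitacin I libraries and 20 and 7 counts in DMSO. With the cucurbitacin I group set to 3 counts, Apoa5 was 7.34-fold lower, and the exact 95% counting interval of the fold begins at 5.57. Apoc3, in the same cluster, had 0 counts in both cucurbitacin I libraries and 1 and 0 counts in DMSO.

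Within 100 kb of any of the 10 genes lay 76 others, of which 48 were tested, 9 were lower and 5 higher, with a median log2 fold change of 0.11. These counts are near the shares over all genes, 19.5% lower and 13.9% higher. In the chromosome 7 cluster, Tomm40, which lies 2147 bp from Apoe, had a log2 fold change of 0.27 (edgeR adjusted p = 0.063) and Clptm1, 6549 bp from Apoc2, rose by 0.52 (0.0281). In the chromosome 9 cluster, 3 neighbours of Apoa1 were tested, Sik3 (0.22), Zfp259 (0.15) and Bud13 (-0.11), and none of the 3 passed. Trmt10a, whose deposited row starts 60 bp beyond the 5′ end of Mttp on the other strand, had a log2 fold change of -0.03. Fcer1g, an immune receptor chain gene 3193 bp from Apoa2, was lower by -3.48 (edgeR adjusted p = 0.00286), and 6 of the 19 genes tested near Apom in the major histocompatibility region were lower, Tnf and Lta among them. Of these neighbours, Fcer1g, Tnf, Lta, Ly6g6f, AU023871 and Lst1 met the filter in the DMSO libraries alone. They had to differ in order to be tested, so the counts of neighbours called lower are description only.

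**Figure D5:**
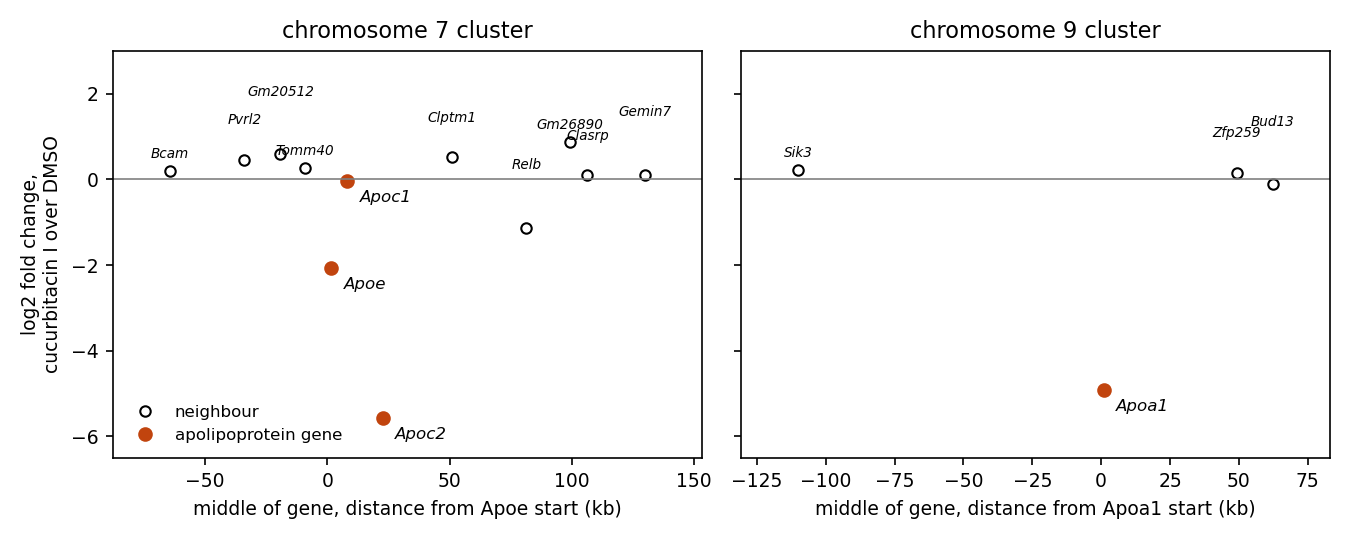
Log2 fold change of cucurbitacin I over DMSO against the distance of each tested gene's middle from the start of Apoe (left) and of Apoa1 (right), in kb along the gene's strand, with filled points for apolipoprotein genes. Apoc2 (-5.57), Apoe (-2.07) and Apoa1 (-4.91) lie below their neighbours, which range from -1.13 (Relb) to 0.88 on the left and from -0.11 to 0.22 on the right, and Apoc1 lies among them.

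Likeness of profile was measured as the Euclidean distance between mean-centred log2 CPM over the 4 libraries, among 10671 genes with a mean of at least 5 CPM. The log2 CPM carry a prior count of 2, which shrinks the differences of genes with few counts, so the fitted fold changes of a pair can be unlike. Nearest to Apob were Irg1 (distance 0.43), Gli1 (0.62) and Col9a1 (0.74). Nearest to Apoa1 were Alas2 (0.24), Lrrc17 and Mx2, to Apoa2 Xaf1 (0.56), Dtx3l and Ifih1, and to Apoc2 Plxnc1 (0.08), Helz2 and Col1a2. Apom was nearest to Kif26a (0.20), Ramp2 and Sema3f, and Apoe to Zfp36l2 (0.11), Rragb and Rai14. Mttp was nearest to Bcar1 (0.06), Cobll1 and Plk2, none of which passed (edgeR adjusted p = 0.0937, 0.085 and 0.122). Apoh was nearest to Ap3m2 (0.07), Eif4e3 and Mlip, and Apoc1 had no close profile, its nearest being Gbp2b at 1.20, then Prr5l and Ptgs2.

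Markers of cells that make lipoproteins were lower in the same libraries. Of 17 endoderm and visceral endoderm markers tested, 14 were called lower and 0 higher. Beside these and the marker counts below stand 19.5% lower and 13.9% higher over all genes tested. Alb, Fga, Pf4, C1qb, Tyrobp and Emcn, among other markers, met the filter in the DMSO libraries alone, so the counts only describe the lists. The endoderm list also shares Hnf4a, Foxa1 and Foxa2 with the transcription factors above and Cubn and Amn with the receptors, so these lists are not separate observations. The endoderm markers summed to 369 and 390 CPM in cucurbitacin I and 946 and 1256 CPM in DMSO, and Fga was at 0 in cucurbitacin I. Gata4, which heart cells also express, made up most of what was left, at 264 and 330 CPM in cucurbitacin I and 203 and 307 CPM in DMSO. Without Gata4 and Dab2, whose groups overlapped, the markers summed to 16.6 and 14.6 CPM in cucurbitacin I and 692 and 886 CPM in DMSO. Gata4 and Dab2 were left out after the data were seen, and each of the other markers tested was lower in cucurbitacin I. The remaining sums therefore had to separate, and the sums and the ratios to them are description only. Per 100 counts of these remaining markers there were 0.493 and 0.926 Apob counts in cucurbitacin I, against 3.54 and 1.43 in DMSO. On the same base there were 245 and 177 Mttp counts in cucurbitacin I, against 3.52 and 2.38 in DMSO. With Gata4 and Dab2 kept, the Apob values were 0.0222 and 0.0348 in cucurbitacin I and 2.59 and 1 in DMSO, and the Mttp values 11.1 and 6.63 in cucurbitacin I and 2.57 and 1.68 in DMSO. Macrophage and blood markers, which bear on Apoe, were lower in 11 of 14 tested and higher in 0. They summed to 27 and 50.2 CPM in cucurbitacin I and 355 and 439 CPM in DMSO, with C1qa, C1qb and Tyrobp at 0 in cucurbitacin I. The embryonic globin genes Hbb-bh1 and Hba-x made up 293 and 372 CPM of the DMSO sums, and without them the sums were 21.3 and 20 CPM in cucurbitacin I and 62.3 and 66.8 CPM in DMSO. Of the macrophage genes, Csf1r (-0.14), Cd68 (-0.48) and Mrc1 (-1.60) did not pass (edgeR adjusted p = 0.45, 0.324 and 0.167). Endothelial markers were lower in 5 of 8 (22.2 and 30.4 CPM in cucurbitacin I, 123 and 154 CPM in DMSO), with Emcn at 0 in cucurbitacin I, and fibroblast markers in 5 of 7 (891 and 1209 CPM in cucurbitacin I, 1643 and 2257 CPM in DMSO).

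Muscle markers moved the other way. Cardiomyocyte markers were higher in 5 of 8, at a summed 13005 and 16351 CPM in cucurbitacin I and 6873 and 8390 CPM in DMSO, and smooth muscle markers in 6 of 6, at 39968 and 32475 CPM in cucurbitacin I and 4360 and 6444 CPM in DMSO. Over all genes tested, 13.9% were called higher and 19.5% lower. The cardiomyocyte markers were well counted in all 4 libraries, but so were the smooth muscle markers, and the marker counts do not establish a single cell type. The part of these cell type differences in the levels of the apolipoprotein genes and of Mttp was not tested.

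Library totals ran from 23759431 to 26773886 counts in cucurbitacin I and from 25573785 to 27069312 in DMSO, and the groups overlapped in depth. Over all genes, 3259 were lower and 2318 higher. Leaving out DMSO replicate 1 gave 1461 lower and 389 higher, and leaving out DMSO replicate 2 gave 2063 lower and 1071 higher. Library totals alone as the scaling gave 4767 lower and 1059 higher. The 6 calls on Apob, Apoa1, Apoa2, Apoc2, Apoe and Apom were made under each alternative that tested the gene, and Apoc2 did not reach the filter of a mean of at least 50 counts.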

How the data were processed

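Total RNA from 4 samples was made into sequencing libraries with a TruSeq preparation, per the labels' protocols. The submitters' processing notes name STAR 2.3.0e, HTSeq 0.6.0 and build mm10. Which annotation release and strand setting were used is not stated in them. A single table deposited by the authors gives counts, as whole numbers, for each gene and library. Per the file headers, the same table has the authors' normalized signal, a log2 fold change, 2 columns of a score (standard error and statistic) and p-values, under DESeq2's column names.

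Of 43374 lines, 4195 repeated a gene and were left out. edgeR 4.0.16 (R 4.3.3) was run on the deposited counts with filterByExpr at a minimum count of 10, TMM scaling, and a 2-sided quasi-likelihood test with no block. P-values were adjusted by Benjamini-Hochberg over all 16722 genes tested, with 0.05 as threshold. Standard errors were derived from the fold change and its F statistic. CPM use TMM-scaled library sizes, and TPM use GENCODE M21 exonic lengths and no TMM factors. Ratios of counts have exact binomial 95% intervals, and a group with 0 counts was given 3 counts in total to form a ratio. Alternatives were DESeq2 1.42.0, voom of limma 3.58.1, other scalings and filters, a replicate block and each library left out. Marker sums without Gata4 and Dab2, and without Hbb-bh1 and Hba-x, were added after the data were seen. The edgeR steps were checked on simulated data.

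The genes and lists were chosen with earlier results of these data known. Named were the 10 genes, the listed transcription factors tested, up to 6 genes of each other list by adjusted p, listed genes near the 10, and the 3 nearest profiles of each gene. Some genes that this rule names, and 1 motif, are not reported here.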

Additional observations from a re-analysis of the deposited data

How the results depend on the processing

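The calls on Apoa1, Apoa2, Apob, Apoc2, Apoe and Apom were made under each alternative in which the gene was tested. Leaving out 1 library gave 1461 to 3001 lower and 389 to 2109 higher over all genes, and 0 to 1 higher among the 10 genes. In the lists it gave 0 to 1 lower for other apolipoproteins, 2 to 5 lower and 0 to 3 higher for assembly partners, 2 to 3 lower and 0 to 1 higher for remodelling, 3 to 7 lower and 0 to 2 higher for receptors, and 1 to 4 lower and 0 to 1 higher for sterol synthesis. With library totals alone, 1059 of all genes were higher, as were 1 assembly partner, 0 remodelling genes and 0 receptors, and 9 sterol genes were lower. Among genes averaging at least 50 counts, where fewer genes are tested, 2 assembly partners were lower and 2 higher, and 7 transcription factors were lower. DESeq2 and the fit with no filter each called 1 other apolipoprotein lower. The replicate numbers name no shared culture, and same-numbered deviations correlated at 0.24. With the replicate block, 1 of the 10 genes was higher (Mttp, 0.52, edgeR adjusted p = 0.0399), with 2 remodelling genes and 4 receptors. Leaving out 1 library turned the sign of 7 genes that were not called, with ranges of -5.83 to 0.89 for Apoc1, -0.36 to 0.30 for Apoh, -0.72 to 0.31 for Clu, -0.00 to 0.99 for Ppara, -0.01 to 0.11 for Srebf2, -0.25 to 0.33 for Nr0b2 and -0.07 to 0.12 for Nr1h2. With library totals it turned for Prox1 (-0.08), Srebf2 (-0.19), Nr0b2 (-0.17) and Nr1h2 (-0.22), and at a mean of at least 50 counts for Nr1h2 (-0.01). The causes of these changes were not tested. Depth limits Apoa4, Apoc1 and Apoh, which had at most 30 counts in any library.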
